A study of Drosophila melanogaster with 12 samples.

Results

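The circular RNAs (circles) of the wildtype Drosophila larval body wall were described here, together with the linear RNA of the genes that make them. All 597 circles that the deposited wildtype table lists were taken, of 729 distinct circles listed for the 2 genotypes of the study, and no threshold was added. They came from 446 host genes. The carcass is the larva's body wall, dissected from stationary larvae of the third instar after the internal tissues were taken out. The labels give 0.05% bromophenol blue for every wildtype library. Wildtype larvae were of strain w1118 with genotype WT, and the study's other larvae were Nxt1 trans-heterozygotes, labelled strain yw with genotype Nxt1, the gene of an mRNA export factor, whose alleles the labels do not name. Each genotype had 3 R libraries, which carry the circles, and 3 M libraries, which carry the mRNA and pre-mRNA values. The letters are read here as RNase R, which digests RNA from its free end and so leaves closed rings, and as its mock treatment with water, since the labels do not spell them out. No difference between genotypes is tested here.

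A circular RNA forms when the spliceosome joins the end of an exon back to the start of the same or an earlier exon, so that a closed ring of exons is cut out of the pre-mRNA. The junction is found in sequencing as a back-splice read. Circles have no free ends, outlast most linear mRNAs and in flies are known best from long, intron-rich genes of the nervous system. The body wall is made up mainly of the muscles that move the larva and of the epidermis that secretes its cuticle.

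The table gives the back-splice reads of each circle in 2 of the 3 R libraries. Which 2 libraries they are was worked out from the authors' mean scaled value beside the counts, because each library has its own total. The totals were 69690700, 78830900 and 92273200 reads, and the libraries are called 1, 2 and 3 in that order, which is not a replicate number. The 3 WT M libraries held 32305641, 31492056 and 30193498 recovered mRNA reads. All 8 muscle markers had mRNA, with a summed level of 13466, 9189 and 20592 FPKM in WT_M replicates 1, 2 and 3, and the epidermal and cuticle markers summed to 21792, 28680 and 33785 FPKM. Of the latter, Lcp4 alone had 20739, 26978 and 32145 FPKM. Fat body markers summed to 1593, 1714 and 1411 FPKM (6 of 7 at 1 FPKM or more) and hemocyte markers to 133, 105 and 138 FPKM (5 of 7), so markers of both cell types were present. Salivary gland markers (4 of 7) summed to 34.3, 241 and 27.7 FPKM, with replicate 2 above the others, and neuron markers (2 of 8) to 5.30, 5.98 and 5.28 FPKM. Markers of trachea and imaginal discs (6 of 8) summed to 324, 206 and 281 FPKM, of which verm alone had 303, 187 and 263 FPKM. The median marker of trachea and imaginal discs had 4.67 FPKM. Midgut markers (3 of 8) summed to 50, 25.1 and 30.0 FPKM, of which LysP alone had 48.1, 20.1 and 27.7 FPKM. The median midgut marker had 1.06 FPKM. The part of these cell types in the circles was not tested.

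The reads were concentrated in few circles. The 597 circles held 83575 back-splice reads, and the most abundant alone held 16.5% of them (95% exact binomial interval 16.3 to 16.8, counting error only). The first 3 held 29.8% (29.4 to 30.1), the first 10 held 41.4% (41.1 to 41.8) and the first 100 held 73.3%. It took 23 circles to reach 50% of the reads and 256 to reach 90%. At the other end, the 299 least abundant circles shared 7.52% of the reads. The median circle had 45 reads over both of its libraries (quartiles 19 and 101, range 2 to 13792), which is 0.290 RPM (reads scaled to 1e+06 library reads). The first circle thus stood 306-fold above the median, and 68 circles (11.4%) had fewer than 10 reads in all.

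**Figure D1:**
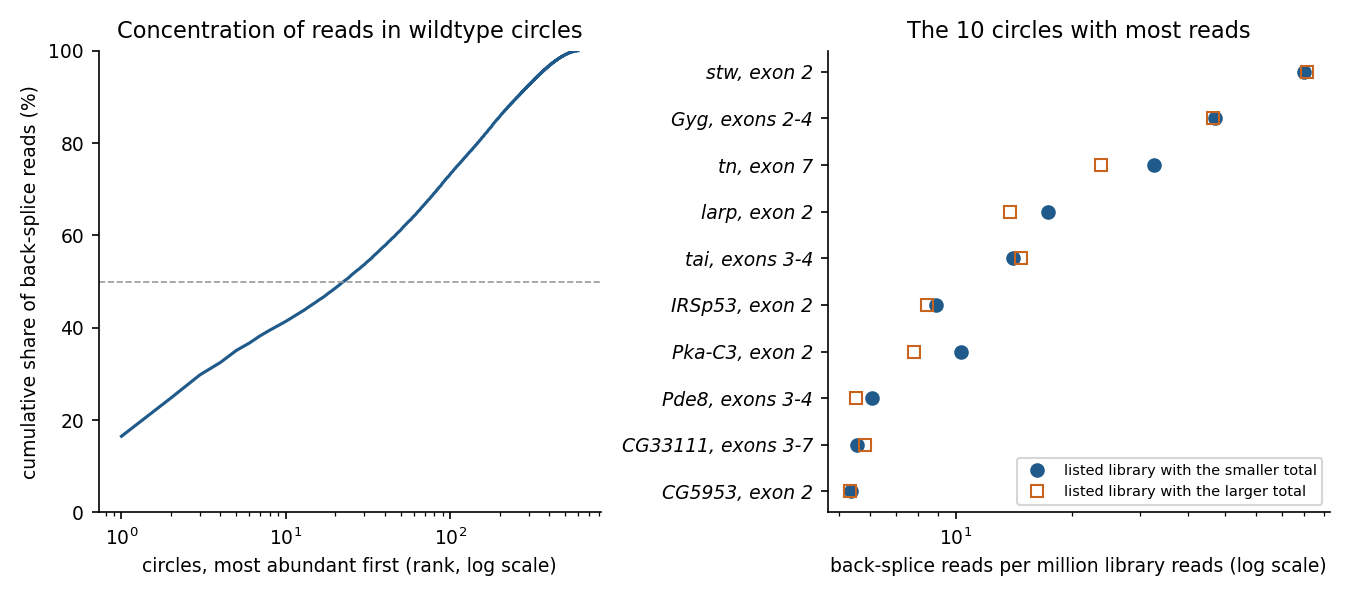
Left, cumulative share of back-splice reads (%) against the rank of the circle (log scale), with a dashed line at 50%, reached by 23 circles. Right, the 10 circles with most reads, in RPM (log scale), with a filled point for the listed library with the smaller total and an open square for that with the larger total; stw exon 2 lies near 80 in each of its libraries, far above the median circle at 0.290.

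The most abundant circle was exon 2 of straw (stw, FBgn0286203), which encodes a laccase, a multicopper oxidase that hardens and darkens the cuticle. It had 6287 reads in library 2 and 7505 in library 3, which are 79.8 and 81.3 RPM, and the libraries did not differ beyond counting error (exact binomial test, adjusted p = 0.422). The next was exons 2 to 4 of Glycogenin (Gyg, FBgn0265191), the protein that primes glycogen synthesis. It had 3281 reads in library 1 and 3647 in library 2, or 47.1 and 46.3 RPM (adjusted p = 0.660). After these came exon 7 of thin (tn, FBgn0265356), a TRIM-family ubiquitin ligase needed to keep muscle sarcomeres intact, with 2270 reads in library 1 and 1879 in library 2. Its scaled levels of 32.6 and 23.8 RPM lay 1.37-fold apart, more than counting error (exact binomial test, adjusted p = 3.14e-21). Each of the leading circles thus came from a different kind of gene: cuticle, carbohydrate store and muscle.

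Below them, exon 2 of larp (an RNA-binding La-related protein) had 1206 reads in library 1 and 1086 in library 2. Exons 3 to 4 of taiman (tai), a coactivator of the ecdysone receptor, had 981 and 1169 reads in the same libraries. Exon 2 of IRSp53, which couples membranes to actin, had 620 reads in library 1 and 780 in library 3. These circles and exon 2 of Pka-C3, a catalytic subunit of cAMP-dependent protein kinase with 721 reads in library 1 and 614 in library 2, complete the 7 circles with more than 1000 reads. Ranks 8 to 10 went to exons 3 to 4 of the cyclic nucleotide phosphodiesterase Pde8 (932 reads in all), exons 3 to 7 of CG33111 (847) and exon 2 of CG5953 (794). Ranks 11 to 20 held from 708 to 507 reads. They came from myd, the scaffold gene Magi, the ubiquitin ligase gene mura, CG44085, cact (the inhibitor of the transcription factor Dorsal), px, CG5151, CG17549 and, with 2 circles, the RNA helicase gene Dbp80.

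Most circles began at the second or the third exon of the transcript that names them. In 274 of 597 circles (45.9%, exact binomial interval 41.8 to 49.99) the first exon of the ring was exon 2, and in 132 (22.1%) it was exon 3. No circle began at exon 1, where 0 of 597 allows a share of up to 0.503%; an exon 1 has no splice acceptor site to take part in a back-splice. Circles that begin at exon 2 took a larger share of reads, 58.1%, than of circles, and 49.8% of the reads when stw exon 2 is left out. The median circle starting at exon 2 was not deeper than the others, at 42.5 reads against 48 reads for the 323 circles that start later. Later starts thinned out quickly: 14 circles began beyond exon 10, and the farthest start was exon 17, in a ring of exons 17 to 18 of Nipped-B, a cohesin loader gene, with 54 reads and in a ring of exons 17 to 21 of bent (bt), which encodes the titin-like protein projectin, with 27 reads.

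Rings were short in exons. Of the 597 circles, 194 (32.5%) held a single exon, 209 (35.0%) held 2 exons and 194 (32.5%) held 3 or more, of which 18 held at least 6. By reads the single-exon rings weighed more, with 50.4% of reads against 24.0% for 2 exons and 25.6% for 3 or more. The most frequent form was exon 2 alone, with 113 circles and 35.8% of all reads, followed by exons 2 to 3, with 89 circles and 7.55% of reads. Among the 20 most abundant circles, 11 were single exons, 9 began at exon 2 and 8 at exon 3; thin exon 7 and CG44085 exons 7 to 9 were the latest starts in that set. Exon numbers follow the transcript in the circle's name, so a gene with alternative first exons can number the same exon differently.

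**Figure D2:**
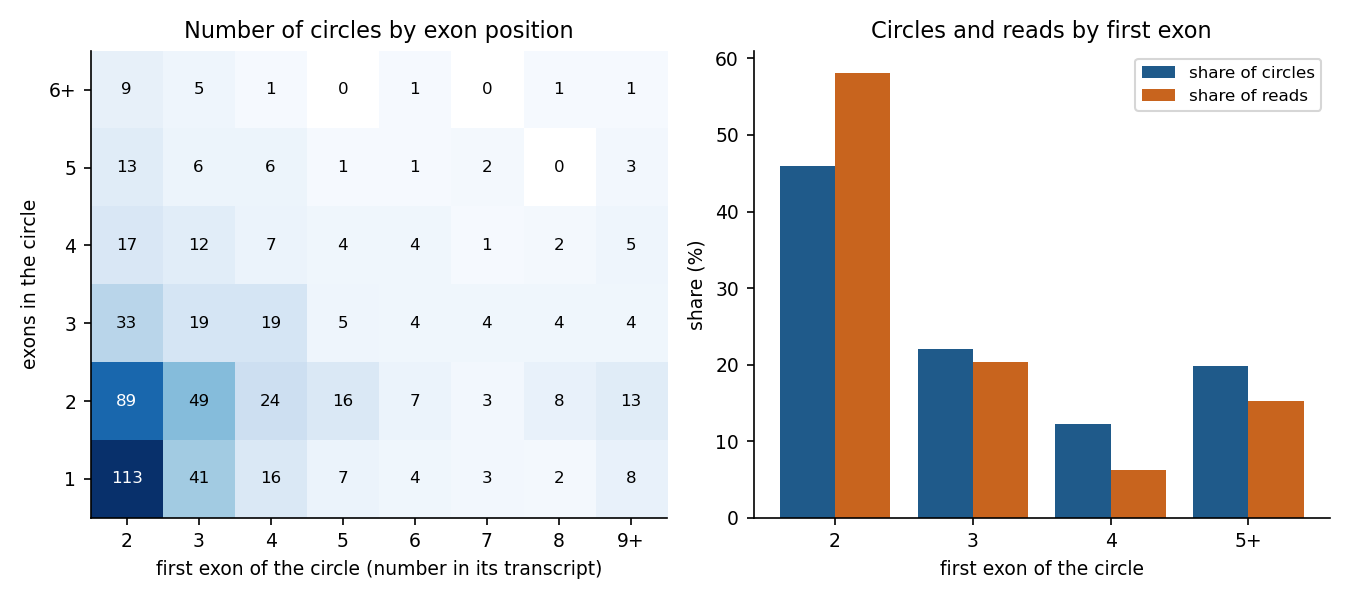
Left, number of wildtype circles by the first exon of the ring (horizontal) and the number of exons in it (vertical); 113 circles are exon 2 alone. Right, share of circles and share of back-splice reads (%) by first exon, where exon 2 has 45.9% of circles and 58.1% of reads.

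Most hosts made a single listed circle. Of 446 hosts, 338 (75.8%) had 1 circle, 77 had 2, 22 had 3, 6 had 4 and 3 had 5. The 108 hosts with several circles owned 259 circles and 48.1% of all reads, with a median of 149.5 reads per host against 43 for hosts with 1 circle. Within such a host the reads were unequal: the leading circle held a median of 73.2% of the host's reads (range 41.4 to 99.6), over 90% in 20 hosts and under 50% in 7. In 49 hosts, circles named after the same transcript could be compared, as 73 pairs. Of these, 29 pairs used separate exons, 27 shared their last exon, 16 shared their first and 1, of Nlg1, was a ring of exons 3 to 6 within a ring of exons 2 to 8.

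Some hosts with many circles put nearly all reads in 1 ring. Of the 4 circles of stw, exon 2 had 99.6% of the reads, and the others, exons 3 to 6, exon 3 and exons 4 to 6, had 34, 17 and 11 reads. Of the 4 circles of thin, exon 7 had 98.3%. Other hosts were more even. Pde6, a phosphodiesterase gene, had 5 circles, led by exons 5 to 6 with 136 reads in library 1 and 125 in library 2 (51.4% of the host's reads) and followed by exon 3 with 56 and 63 reads in the same libraries. CG40006 had 4 circles of 1 transcript, led by exons 5 to 6 (42.6%), then exons 8 to 9 (27.4%) and exons 2 to 4 (24.2%). Of the 3 circles of Dbp80, exons 3 to 4 had 542 reads and exons 4 to 5 of another transcript had 517. RhoGEF64C, an exchange factor gene, had 5 circles, led by exons 8 to 9 with 56.2% of its reads, and l(3)80Fg also had 5, led by exons 3 to 6 with 49.6%. The hosts with 4 circles further included Nlg1, which encodes the synaptic adhesion protein neuroligin 1 (78.0% in exons 3 to 6), the nuclear migration gene klar (41.9% in exon 5) and CG18659.

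The listed libraries of a circle often differed by more than counting error. An exact binomial test of the reads of both libraries against their totals, with Benjamini-Hochberg adjustment over all 597 circles, called 191 circles (32.0%) at an adjusted p under 0.05, and 252 at an unadjusted p under 0.05. It compares libraries of 1 genotype, not conditions. The median fold between the 2 libraries was 1.64, and 236 circles (39.5%) lay at least 2-fold apart, of which 149 were called. The spread narrowed with depth: the median fold was 2.27 among the 150 circles with 2 to 19 reads, 1.43 among the 123 with 50 to 99, and 1.21 among the 42 with 300 or more. The called share was 18.7%, 37.4% and 38.1% in the same classes. The test calls smaller folds where reads are many, so this share does not compare the spread between classes. Of the 20 most abundant circles 7 were called. The largest fold among them was 1.84, for exon 3 of mura, with 426 reads in library 1 and 262 in library 2 (exact binomial test, adjusted p = 3.13e-13).

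The largest differences sat on very few reads in the lower library. At least 10-fold lay between the libraries of 28 circles, all called, and in 26 of them the lower library had at most 3 reads. Exons 2 to 4 of CG11168 had 37 reads in library 1 and 1 in library 3, a ratio of 49.0 (exact counting interval 8.26 to 1987). Exons 2 to 5 of ftz-f1, a nuclear receptor of the moulting cascade, had 30 reads in library 2 and 1 in library 3 (35.1, interval 5.84 to 1433). Exon 3 of foraging (for), a cGMP-dependent kinase gene, had 75 in library 1 and 3 in library 3 (33.1, interval 10.9 to 164). In each of these 3 circles the lower library was library 3, which has the largest total. Other circles with high ratios were exons 5 to 6 of CG6006 (18 and 1), exons 2 to 4 of the engulfment receptor gene drpr (17 and 1), exons 5 to 7 of the diacylglycerol kinase gene Dgk (17 and 1), exons 7 to 9 of CG18659 and exons 2 to 6 of Pde6 (14 and 1 each).

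The library pairs were not alike. Called circles numbered 72 of 221 (32.6%) for libraries 1 and 2, 68 of 171 (39.8%) for libraries 1 and 3, and 51 (24.9%) for libraries 2 and 3. In each pair more of the called circles were higher in the library with the smaller total: 44 against 28 in libraries 1 and 2, 51 against 17 in libraries 1 and 3, and 34 against 17 in libraries 2 and 3. The median log2 ratio of the smaller over the larger library was 0.06, 0.40 and 0.11 in these pairs. Deep circles also listed library 1 more often: 88.1% of circles with 300 or more reads listed it, 76.2% listed library 2 and 35.7% library 3, against 54.7%, 74.7% and 70.7% of circles with 2 to 19 reads. No label or file header states the rule by which 2 of 3 libraries are listed, so the spread over all 3 libraries can differ from these values, and the part of the listing in them was not tested.

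**Figure D3:**
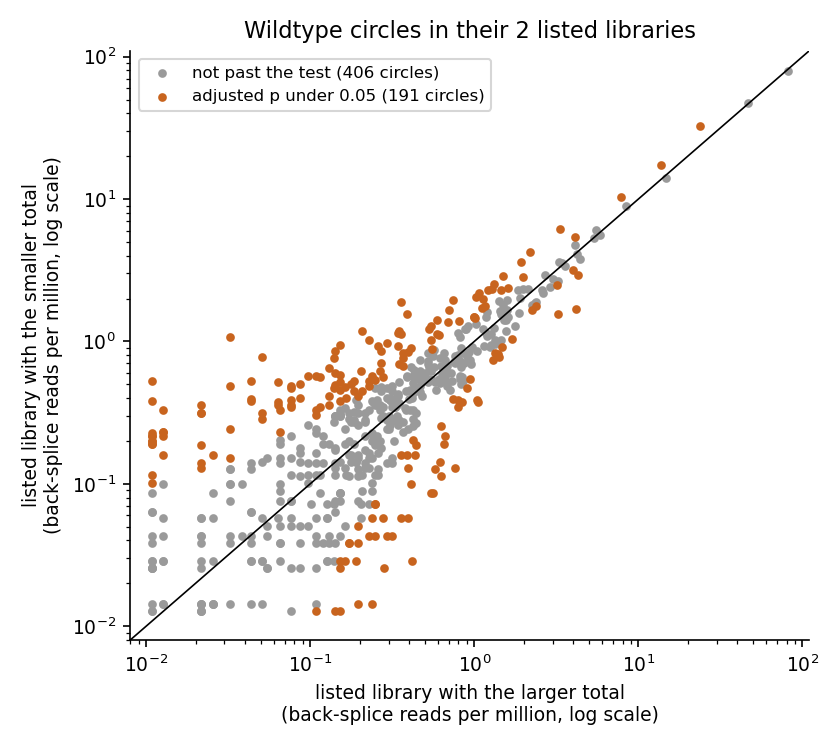
Back-splice reads in RPM of each of the 597 wildtype circles in the listed library with the larger total (horizontal) and in that with the smaller total (vertical), both on log scales, with the line of equality. The 191 orange circles differ by the exact binomial test, and the widest departures lie at the left edge, where a library has 1 to 3 reads.

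Host genes were expressed and long. The host median was 17.1, 16.4 and 15.7 FPKM in WT_M replicates 1, 2 and 3 (FPKM with gene lengths put in order, which could be done for 389 hosts). The mean over the libraries had a median of 16.8 FPKM among hosts, with quartiles of 7.80 and 35.2. Over all 12749 genes with a level the median was 3.56 FPKM, so the hosts stood 4.74-fold higher. A circle can be seen only where its gene is transcribed, and over the 7860 genes with at least 1 FPKM the median was 10.5 FPKM, and the hosts among them stood 1.64-fold above it. Of these genes, 375 (4.77%) hosted a listed circle. That share was 2.22% at 1 to 3 FPKM, 7.89% at 30 to 100 FPKM and 4.50% at 300 FPKM or more, where 10 of 222 genes were hosts. The last value was close to the 4.77% of all these genes. Among genes of 5000 bases or more the share was 14.5%, 20.6%, 26.4% and 29.6% at 1 to 10, 10 to 30, 30 to 100 and 100 FPKM or more. At 2000 to 5000 bases it was 4.06%, 7.47%, 10.2% and 8.64% in the same classes. Among the 50 genes with the highest mRNA level, the tyrosine hydroxylase gene ple was the 1 host.

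Hosts were longer than other expressed genes. They had a median exonic length of 4662 bases (quartiles 3050 and 6236), and the other genes with at least 1 FPKM had 1863 (1125 and 3064). The share of genes that were hosts was 0.129% under 1000 bases (2 of 1551, RpL27A and S), 0.799% at 1000 to 2000, 4.03% at 2000 to 3000, 9.08% at 3000 to 5000 and 19.6% (124 of 633) at 5000 to 8000. The length put to S was only 274 bases. Single genes may carry a wrong length, so its place in the shortest class is uncertain. The order held within levels of expression. At 10 to 30 FPKM the share was 0.288% under 2000 bases, 7.47% at 2000 to 5000 and 20.6% from 5000 on, and at 100 FPKM or more it was 1.79%, 8.64% and 29.6%. Longer genes also tend to have more exons and longer introns, which were not tested: intron lengths could be given to fewer than 80% of the hosts, so that check is void.

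**Figure D4:**
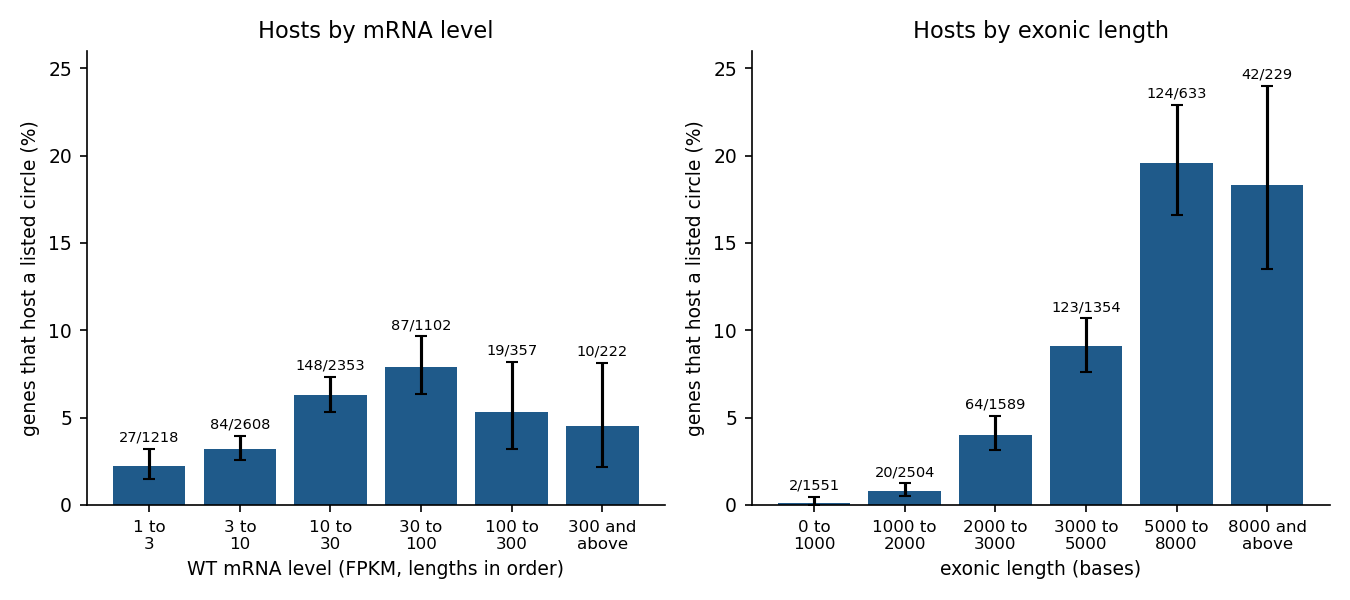
Share of genes with at least 1 FPKM of wildtype mRNA that host a listed circle (%), by mRNA level (left) and by exonic length (right). Bars start at 0, error bars are 95% exact binomial intervals for counting error only, with hosts over genes printed on each bar; by length the share goes from 0.129% to 19.6% and 18.3%, by level from 2.22% to 7.89% and 4.50%.

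Within the hosts, circle reads followed the mRNA level weakly. Across 389 hosts Spearman's coefficient between summed circle RPM and mean mRNA FPKM was 0.22. This is a description across genes that share the same libraries, and genes are not replicates. In 4 groups of hosts of near-equal size, from low to high mRNA, the median host had 40, 54, 77 and 79 circle reads, and the groups held 9.92%, 13.9%, 19.8% and 44.6% of the reads. Most of the last share belonged to stw, Gyg and tn. Their mRNA levels were ordinary for abundant genes: stw had 94.4, 82.9 and 120.0 FPKM in WT_M replicates 1 to 3, Gyg 91.7, 66.8 and 103 FPKM, and tn 271, 303 and 264 FPKM. For tn the replicates lay close together, and for stw and Gyg replicate 2 was the lowest.

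**Figure D5:**
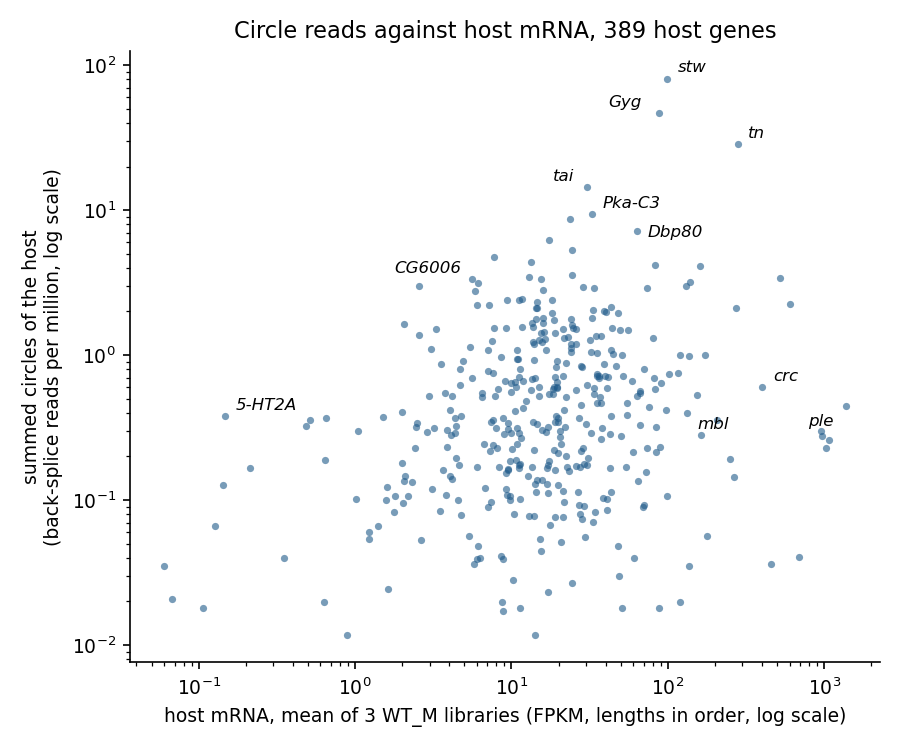
Summed circle level of each of 389 host genes (RPM in the R libraries, log scale) against its mRNA (mean of 3 WT_M libraries, FPKM with lengths in order, log scale). The cloud rises weakly (Spearman's coefficient 0.22), with stw and Gyg high above it, 5-HT2A at the far left with 0.148 FPKM, and ple at the far right with 1371 FPKM.

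A ratio that needs no recovered length set each host's circle RPM against 1000 normalised mRNA reads. Longer mRNAs give more reads per molecule, so it lowers long hosts relative to short ones. R and M libraries are separate and M libraries hold total RNA, circles included, so this ranks hosts and is no molar ratio. Its median over 445 hosts was 0.192 (range 3.16e-04 to 19.6), and over the 247 hosts with at least 50 circle reads it was 0.377. The highest was 5-HT2A, a serotonin receptor gene, with 19.6 ± 7.19 (SD over 3 M libraries), from 58 circle reads and only 23, 16 and 31 mRNA reads in WT_M replicates 1 to 3. CG6006 followed with 10.1 ± 2.94, from 513 circle reads and 401, 261 and 417 mRNA reads. The abundant hosts stw (7.48 ± 1.39) and Gyg (5.92 ± 1.43) were also among the 8 highest. The rest of these 8 were CG17684 (7.66), the homeobox gene scro (6.16), CG15312 (5.41) and CG17816 (4.31), all below 5 FPKM of mRNA. A host with little mRNA reaches 50 circle reads only at a high ratio, so these low levels follow in part from the filter. Thin, the third host by circle reads, had 0.661 ± 0.0478 and ranked 90 of 247. Set against FPKM, which allows for length and could be done for 214 of these hosts, 5 of the highest 8 and 5 of the lowest 8 stayed in those sets, and Spearman's coefficient between both ratios was 0.92. By that ratio stw (0.817 RPM per FPKM) remained in the highest 8, while Gyg (0.535), scro (0.362) and CG15312 (0.570) left it and CG44422 (0.673), Magi (0.616) and Pde6 (0.598) entered.

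By its definition, the ratio was lowest in hosts with much mRNA for their circle reads. The lowest was pale (ple), the tyrosine hydroxylase that starts catecholamine and cuticle pigment synthesis, with 67 circle reads and a ratio of 0.00287. Its mRNA reads numbered 306888, 249113 and 19425 in WT_M replicates 1 to 3, so replicate 3 was far below the others, and its ratio was 0.00182, 0.00218 and 0.0272 by replicate. Cht10, a chitinase gene, had 0.00531 ± 7.40e-04 from 69 circle reads and 99223, 124501 and 94528 mRNA reads. Muscleblind (mbl), a splicing factor gene known in fly heads for an abundant circle of its own second exon, had 0.0132 ± 0.00112. It listed 2 circles here, with 68 reads between them and exons 5 to 6 in the lead, on 135, 119.9 and 141 FPKM of mRNA. The others of the lowest 8 were CG13676 (0.0162), the ATF4-type transcription factor gene crc (0.0198), the chitin deacetylase gene serp (0.0212), the Z-disc gene zormin (0.0240) and CG17839 (0.0318).

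Hosts carried more pre-mRNA signal than other genes. Of the 309 hosts with finite pre-mRNA values, 308 had pre-mRNA reads in WT, against 4355 of 12857 genes in all (33.9%), and 136 hosts with infinite deposited values were left out. These counts are not like for like, because a host must be transcribed and the 12857 genes were not filtered for expression. The pre-mRNA share of a gene's reads (pre-mRNA over pre-mRNA plus mRNA) had a median of 14.4% in 257 hosts with at least 1 FPKM and 1.76% in 2907 other such genes. The gap was present in each class of exonic length: 6.73% in hosts against 0.841% in other genes under 2000 bases, 12.3% against 2.69% at 3000 to 5000, and 16.4% against 4.01% from 5000 on. Intron length, which sets how many bases of pre-mRNA can be read, could not be held fixed in these shares. Length-scaled pre-mRNA had a median of 14.9 FPKM in the 107 hosts that allow it and 4.50 FPKM in 1586 genes in all. The mRNA medians were 16.8 FPKM in 389 hosts and 3.56 FPKM in 12749 genes. These gene sets differ, and whether hosts had more pre-mRNA beyond their higher mRNA level was not tested. Circle RPM followed pre-mRNA reads with a coefficient of 0.29 over 309 hosts, and length-scaled pre-mRNA with 0.13 over the 107 hosts that allow it.

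By function, the share of hosts was highest in the list of transcription factors, then in that of signalling kinases, phosphodiesterases and GTPase regulators. The 11 lists were written by hand with earlier results of these data known, so known hosts could enter them. Each share is set beside the 4.77% of all genes with at least 1 FPKM. The shares describe these lists and are no test of host function. Of transcription factors 12 of 35 such genes (34.3%) were hosts, led by the ecdysone-induced factor Eip74EF with 454 circle reads and followed by foxo, the target of insulin signalling, with 193. Of signalling kinases, phosphodiesterases and GTPase regulators 10 of 32 (31.2%) were hosts, led by Pka-C3 (1377 reads), Pde8 (1010) and the Src-family kinase gene Src42A (280). RhoGEF2, an exchange factor gene whose mRNA level could not be put in order, had 417. Of genes of axon guidance, synapse and adhesion 6 of 21 (28.6%) were hosts, including the semaphorin receptor gene PlexA with 329 reads and the protocadherin gene Cad99C with 152. Nlg1, whose level could not be put in order, had 305. These lists hold long genes, with median exonic lengths of 4936, 5026 and 7249 bases, and length moves with hosting, so its part in the shares was not tested.

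Ion channel and calcium genes gave 3 of 15 (20.0%), with the potassium channels Irk1 (45 reads) and Sh (39 reads) the deepest. Their median exonic length was 7361 bases, and 19.6% of all expressed genes of 5000 to 8000 bases were hosts. RNA-binding and splicing regulators gave 4 of 21 (19.0%), among them Rbfox1 (104 reads), the polypyrimidine tract-binding gene heph (35) and mbl; pasilla (ps), whose mRNA level could not be put in order, had 345 reads. Cuticle, chitin and tanning genes gave 3 of 18 (16.7%). With hosts whose level could not be put in order the list held 6 hosts and 14131 circle reads (16.9% of all), of which stw supplied 13854. The members of this list beside stw had 34 to 69 reads each: verm and serp, which are chitin deacetylase genes, obst-B, ple and Cht10.

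Of sarcomere genes 3 of 26 (11.5%) were hosts, above the 4.77% of all genes with at least 1 FPKM: tn with 4219 reads, bt with 45 and the tropomyosin gene Tm2 with 36. The Z-disc gene zormin, which is not in the list, had 3 circles and 169 reads. No circle was listed for myosin heavy chain (Mhc), whose mRNA had 1196, 686 and 2089 FPKM in WT_M replicates 1 to 3, nor for the actin gene Act57B, with 5924, 4056 and 8861 FPKM. The titin-like gene sls, a long gene with 64.9, 54.7 and 79.4 FPKM, had none either. Genes of muscle attachment and basement membrane gave 1 of 19 (5.26%), close to that share, namely Thrombospondin (Tsp), a tendon matrix protein gene, with 235 reads; the integrin genes mew and mys, whose level could not be put in order, had 41 and 3. Chromatin regulators gave 0 of 24, with a median exonic length of 6008 bases and a median of 15.2 FPKM. This holds only for the genes written into that list. The cohesin loader gene Nipped-B and Parp1, which are not in it, were hosts with 180 and 266 circle reads. Glycolysis genes gave 0 of 12 and cytosolic ribosomal protein genes 2 of 69 (2.90%), RpL3 with 44 reads on 1029, 1006 and 1162 FPKM and RpL27A with 40 reads. In all, 56 of the 446 hosts belonged to any of these 11 lists.

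Set beside the Nxt1 table, the outline of the wildtype circles was close to it in these descriptive shares, which were not tested. The 10 most abundant circles held 41.4% of reads in WT and 40.4% in Nxt1, the ring began at exon 2 in 45.9% and 45.8%, single exons made up 32.5% and 29.6%, and 75.8% of 446 WT hosts and 79.0% of 366 Nxt1 hosts had 1 circle. The tables shared 335 circles, 56.1% of the 597 WT circles and 71.7% of the 467 Nxt1 circles. The Nxt1 R libraries had totals of 48182700, 71326400 and 78946700 reads, each below the WT total of the same order. The part of this depth in the numbers of circles was not tested. The shared circles held 89.6% of WT reads and had a median of 87 reads in WT, against 22 for the 262 listed in WT alone, and all of the 50 most abundant WT circles were listed in Nxt1. None of those listed in WT alone had more than 262 reads.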

How the data were processed

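Total RNA of larval carcass was sequenced after rRNA depletion, with or without RNase R, per the labels' protocols. Tools named in the submitters' processing notes, without roles, are STAR 2.5.3a, featureCounts 1.6.2 of Subread, Trimmomatic 0.36 and DESeq2. Neither the genome build nor the circle caller is named by any label or header. Circles were deposited by the authors as raw counts of back-splice reads for 2 of 3 libraries, and beside them the mean of both as a scaled signal, deposited per 1e+09 library reads. Circles that list the same libraries gave the library totals from counts and mean, and with these every deposited mean was met within 0.0530 (WT) and 0.0254 (Nxt1) of its units. The table's 4 columns of single-library scaled values were not used. Values of mRNA and pre-mRNA were deposited by the authors as FPKM, per the labels, for 17492 genes each.

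Whole reads were recovered from the FPKM within 0.01 (for mRNA 15293 of 15293 genes that have reads, 294 of them times a shared factor, and for pre-mRNA 4543 of 4543 and 88). The implied lengths did not follow the genes' own spans (Spearman's coefficient 0.028 for mRNA) but the spans of genes in sorted order of ID (0.933), so levels were recomputed with lengths in order, and single genes may still carry a wrong length. A circle's name was read as transcript, last exon, first exon. The RefSeq gene table gave symbols for 17371 of 17492 IDs, and 10 circles of 6 hosts were named by their transcript.

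Python 3.11.15, pandas 2.3.3 and scipy 1.17.1 were used, and the scripts were tested on simulated data. The test of spread between libraries was a 2-sided exact binomial test against the library totals with Benjamini-Hochberg adjustment. All other comparisons are descriptions. Genes named are the 20 circles and hosts with most reads, the hosts with most circles, the 8 highest and lowest ratios among hosts with at least 50 circle reads, the largest spreads past the threshold (1 is not reported here), and hosts in the lists. The members and lists were chosen with earlier results of these data known. The labels do not say if replicates came from separate larvae.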

Additional observations from a re-analysis of the deposited data

How the results depend on the processing

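Of 49 alternatives, 28 left the value within its error or within 1.5 times a count, and 21 moved it. Only the correlations and the host level have a direction that could turn, and it turned in none of their alternatives. The other results are shares, counts or positive ratios without a direction. With at least 10 reads required in each listed library (370 circles), the first 10 circles held 43.5% of reads, hosts with 1 circle made up 81.3%, and 112 circles differed between libraries. Leaving out the reads of each library in turn gave 39.4% to 43.9% for the first 10 circles. For hosts and calls, only the circles listed without a given library were kept, which are those of a single library pair. These subsets gave 88.3% to 94.3% for hosts with 1 circle and 48 to 72 called circles. Because each subset holds fewer circles, these values cannot show what a single library contributes. By reads, 58.1% began at exon 2. Spearman's coefficient with host mRNA was 0.16 with the FPKM as deposited, 0.18 for hosts with at least 50 circle reads, 0.20 for leading circles and 0.17 at 1 FPKM or more; with pre-mRNA it was 0.29 on recovered reads, an alternative chosen after seeing the data. The median of hosts over that of all genes was 19.9 with the FPKM as deposited, whose lengths are out of order, and 1.64 among genes with at least 1 FPKM. Scaling mRNA reads to equal totals of the WT_M libraries gave a median ratio of 0.159. The main ratio divides WT_M reads by library factors of 1.2425, 1.211 and 1.175, set over the M libraries of both genotypes. The lower value is therefore mainly a change of unit. Where no reason is given, the cause was not tested. No paired analysis was possible because the circle columns carry no replicate number. Counting error limits circles of few reads most, and 56 circles had a single read in a library.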
